A study of Drosophila melanogaster with 3 samples.

Results

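The mitochondrial ribosomal protein genes are nuclear genes that encode the proteins of the ribosome inside mitochondria, and they were chosen as all protein-coding genes of the Drosophila melanogaster genome whose symbol begins with mRpL or mRpS. There are 73 of them among 13968 protein-coding genes, 47 for the large subunit (mRpL) and 26 for the small subunit (mRpS). Any gene for such a protein under another symbol is not in the set. What was measured was where the fly protein CG8119 sits on chromatin when it is expressed from a transgene as a fusion with the fluorescent tag eGFP. Chromatin of whole prepupae of strain CG8119-GFP, aged 1 day, was sheared by sonication, pulled down with an anti-GFP antibody and sequenced (ChIP-seq). All 3 samples are biological replicates of that single group, so no condition was compared with another, and input or untagged material was not analysed here. The labels do not name the promoter that drives the transgene, and in whole animals a peak may come from any tissue. A peak near a start does not show that the gene is regulated.

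The mitochondrial ribosome translates the few proteins encoded by mitochondrial DNA, which are core subunits of the respiratory chain and of ATP synthase. Its RNAs are made in the mitochondrion, whereas its proteins are made in the cytosol from nuclear genes and imported. Some of these proteins have counterparts in bacterial ribosomes, and others occur only in mitochondria. Many compact fly housekeeping genes start back to back with a neighbour on the opposite strand, so that a single stretch of DNA is the upstream region of both genes. A neighbour is called divergent here when its protein-coding start lies on the opposite strand and within 500 bp upstream of a start of the gene.

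A peak was counted for a gene when its summit lay within 500 bp of any annotated transcript start of that gene. Summits of the 3 thresholded lists that lay within 150 bp of each other were joined into a locus, and a locus with a summit of every replicate is called shared. A gene with a shared locus is called bound. The thresholded list of replicate 1 has 7279 peaks, that of replicate 2 has 6769 and that of replicate 3 has 4608, and read depth is unknown. Because the scale of the authors' peak signal is not stated, each signal is also given as a percentile, the share of peaks in the same list with an equal or lower signal.

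Of the 73 genes, 9 were bound, or 12.3%, against 1266 of all protein-coding genes, or 9.06%. By falling percentile they are mRpS23, mRpL41, mRpS10, mRpL23, mRpL20, mRpL24, mRpS2, mRpL2 and mRpL34. Another 2 genes, mRpS7 and mRpS6, had a summit in 2 replicates, and 4 genes, mRpS18B, mRpL39, mRpL43 and mRpS29, had one in a single replicate. The remaining 58 genes had none.

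The sequences at 5 of the 9 shared loci are given here as examples. The centre held more A and T than the flanks at all 9, so this trait does not set the 5 apart. The windows at mRpL41 and mRpL34, not printed, also overlap no annotated exon. Each is the dm6 plus strand from 90 bp before to 90 bp after the locus centre, 5′ to 3′, read from the RefSeq genome, and capitals mark runs of at least 8 bases made of A and T alone.
mRpS23 and CenG1A, chr2L:13835371-13835551: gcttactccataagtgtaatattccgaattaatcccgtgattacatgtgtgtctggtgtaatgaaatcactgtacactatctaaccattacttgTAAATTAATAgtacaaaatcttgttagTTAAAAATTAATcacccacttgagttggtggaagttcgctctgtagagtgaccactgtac
mRpS10 and Art3, chr3R:15229446-15229626: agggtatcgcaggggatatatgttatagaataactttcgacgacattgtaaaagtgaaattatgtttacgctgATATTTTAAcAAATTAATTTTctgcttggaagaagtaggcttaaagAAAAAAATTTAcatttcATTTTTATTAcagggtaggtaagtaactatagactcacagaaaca
mRpL20 and Icmt, chr3L:13018059-13018239: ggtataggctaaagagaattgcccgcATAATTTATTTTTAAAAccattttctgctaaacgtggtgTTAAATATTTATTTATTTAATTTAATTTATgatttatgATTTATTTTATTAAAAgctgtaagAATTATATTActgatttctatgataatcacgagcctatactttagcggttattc
mRpL24 and betaggt-I, chr2L:4945392-4945572: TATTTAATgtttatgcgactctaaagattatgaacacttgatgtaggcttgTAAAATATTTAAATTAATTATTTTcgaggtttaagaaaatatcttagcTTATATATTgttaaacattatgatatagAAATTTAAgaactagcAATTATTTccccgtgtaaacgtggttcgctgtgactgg
mRpS2 and Mon1, chr2L:4850444-4850624: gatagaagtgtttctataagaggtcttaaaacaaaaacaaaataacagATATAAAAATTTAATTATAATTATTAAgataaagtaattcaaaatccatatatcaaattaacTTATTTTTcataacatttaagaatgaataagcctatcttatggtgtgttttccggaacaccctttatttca
No annotated exon overlaps these windows, which lie between the starts of the 2 genes named. The mRpS23 window holds 2 capital runs, the mRpS10 window 4, the mRpL20 window 4, the mRpL24 window 5 and the mRpS2 window 2.

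Among the small-subunit genes, the strongest peaks were at mRpS23 (FBgn0260407), which encodes a protein of mitochondrial and not of bacterial ribosomes. Its signals were 1069, 889 and 743 in replicates 1, 2 and 3, at ranks 14, 15 and 21 of the lists. The locus covers 13835300 to 13835632 on 2L. Its centre, 13835461, is 389 bp upstream of the mRpS23 start but 103 bp upstream of the start of CenG1A, an Arf GTPase-activating protein gene. mRpS10 (FBgn0038307), whose product has a bacterial counterpart, had signals of 841, 792 and 726 in replicates 1, 2 and 3, at ranks 33, 26 and 23. Its centre, 15229536 on 3R, lies almost midway between the divergent starts, 129 bp from mRpS10 and 128 bp from Art3, a protein arginine methyltransferase gene. At mRpS23 and mRpS10 the signal was highest in replicate 1 and lowest in replicate 3, while the percentile stayed between 99.5 and 99.8.

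mRpS2 (FBgn0031639), another small-subunit gene with a bacterial counterpart, had signals of 303, 296 and 253 in replicates 1, 2 and 3, at percentiles of 91.8, 92.1 and 89.6. The centre at 4850534 on 2L is 115 bp upstream of mRpS2 and 107 bp upstream of Mon1, which acts in the activation of the late-endosome GTPase Rab7. The other 4 small-subunit genes with a peak were weaker and were not called in every replicate. mRpS7 (FBgn0032236), which has a bacterial counterpart, had signals of 124 and 116 in replicates 1 and 2, at percentiles of 65.6 and 61.6, and no summit in either list of replicate 3. Its locus at 10386522 on 2L is 140 bp upstream of mRpS7 and 260 bp upstream of Cdk1, the gene of the mitotic cyclin-dependent kinase. mRpS6 (FBgn0035534), also with a bacterial counterpart, had signals of 109 and 127 in replicates 1 and 2, at percentiles of 59.5 and 66.4, 91 bp upstream of its start on 3L. In replicate 3, mRpS6 had a summit only in the longer ranked list, with an irreproducible discovery rate (IDR) of 0.392, against 0.01 at the smallest score of the thresholded lists.

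The 2 small-subunit genes with a thresholded peak in replicate 2 alone stood low in that list. mRpS18B (FBgn0032849) had a signal of 71.1, at percentile 29.0, 139 bp upstream of its start. In the ranked lists of replicates 1 and 3, mRpS18B also had a summit, with an IDR of 0.0133 and 0.347. mRpS29 (FBgn0034727), whose human homologue is also known as DAP3, had a signal of 52.6, at percentile 7.83. That summit lies 439 bp upstream of mRpS29 and 198 bp upstream of rad50, a gene of DNA double-strand break repair.

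Among the large-subunit genes, mRpL41 (FBgn0034001), whose product has no bacterial counterpart, had signals of 819, 834 and 741 in replicates 1, 2 and 3, at ranks 38, 20 and 22. Its centre at 15217757 on 2R is 140 bp upstream of the mRpL41 start, and no other protein-coding start is nearer. The nearest opposite start, that of CG8079, is 622 bp from the centre, and mRpL41 is the 1 bound gene of the 9 without a divergent neighbour. mRpL23 (FBgn0035335), with a bacterial counterpart, had signals of 536, 531 and 521 in replicates 1, 2 and 3, at percentiles of 97.8, 98.3 and 98.5. The mean signal was 529 ± 7.50 (SD, n = 3). mRpL23 is the 1 gene of the 9 whose locus centre, 2373616 on 3L, lies downstream of its nearest start, by 62 bp and inside the transcribed region. CG9004 starts on the other strand, 112 bp from the centre.

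mRpL20 (FBgn0036335) had signals of 399, 447 and 367 in replicates 1, 2 and 3, at percentiles of 95.5, 97.0 and 95.6. Its centre at 13018149 on 3L is 282 bp upstream of mRpL20 and 117 bp upstream of Icmt, the gene of isoprenylcysteine carboxyl methyltransferase. mRpL24 (FBgn0031651) had signals of 337, 244 and 284, at percentiles of 93.3, 88.5 and 91.8. Its centre at 4945482 on 2L is 121 bp upstream of mRpL24 and 97 bp upstream of betaggt-I, the beta subunit gene of a protein geranylgeranyl transferase. The products of mRpL20 and mRpL24 have bacterial counterparts, and at both loci the neighbour's start is the nearer one. The percentile was higher at mRpL20 than at mRpL24 in every replicate, with means of 96.0 ± 0.878 and 91.2 ± 2.45 (SD, n = 3 each).

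mRpL2 (FBgn0036135) encodes the counterpart of a conserved protein of the bacterial large subunit, and its signals were 175, 250 and 226 in replicates 1, 2 and 3. The percentiles were 79.0, 89.1 and 87.3 in the same order, so replicate 1 was lowest at mRpL2 by signal and by percentile. The centre at 11120523 on 3L is 324 bp upstream of mRpL2 and 112 bp upstream of a start of FoxK, a forkhead transcription factor gene. Another FoxK start lies 64 bp from the mRpL2 start, between the locus and mRpL2. Measured from that start, the centre lies inside FoxK, and annotated exons overlap the 90 bp to each side. mRpL34 (FBgn0083983), with a bacterial counterpart, had signals of 67.8, 75.5 and 60.9, at percentiles of 25.0, 33.9 and 13.5. Its locus at 16098766 on 2R lies 182 bp upstream of mRpL34 and 202 bp upstream of Dg, the dystroglycan gene. All 3 percentiles of mRpL34 lay below every value of the other 8 bound genes. The 2 large-subunit genes with a thresholded peak in replicate 1 alone encode proteins without a bacterial counterpart. They were mRpL39 (FBgn0036462), with a signal of 64.7 at percentile 21.3, and mRpL43 (FBgn0034893), with a signal of 55.5 at percentile 11.1. The mRpL43 summit lies 385 bp upstream of mRpL43 but 104 bp inside CG30183, whose start is the nearer one. In the ranked list of replicate 2, mRpL39 and mRpL43 each had a summit within 500 bp, with an IDR of 0.0426 and 0.142.

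**Figure D1:**
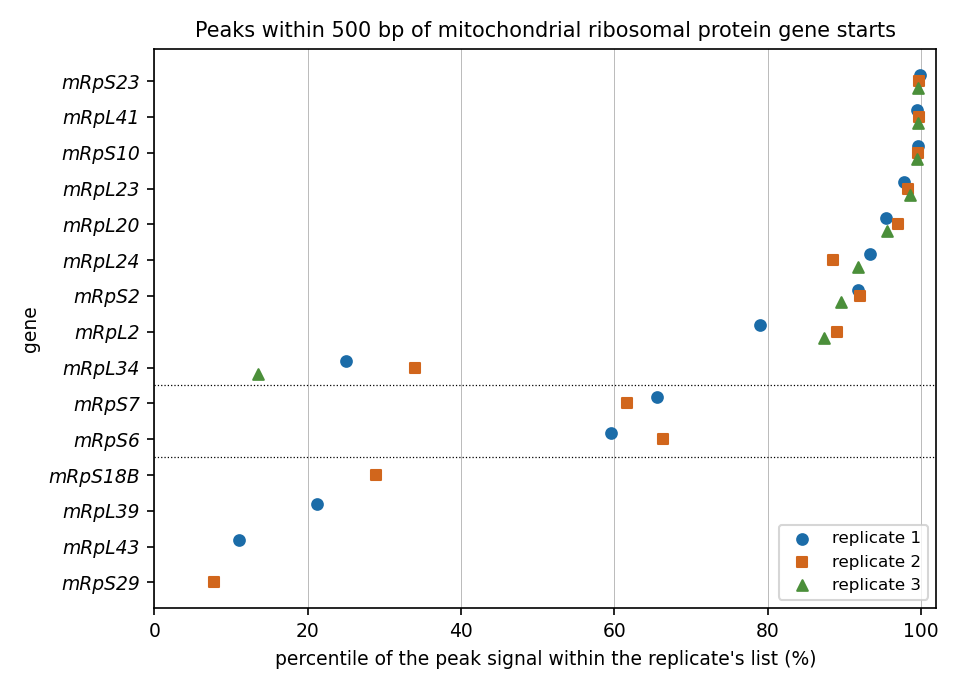
Percentile of the peak signal within each replicate's list (x axis, %) for the 15 mitochondrial ribosomal protein genes with a summit within 500 bp of a start (y axis). Each point is 1 replicate, and dotted lines part the genes with a summit in 3, 2 and 1 replicates; of the 9 bound genes, mRpL34 alone has values below 79.0.

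Taken singly, replicates 1 and 2 each had a summit at 13 of the genes (17.8%) and replicate 3 at 9 (12.3%), a mean of 11.7 ± 2.31 genes (SD, n = 3). Over all protein-coding genes the shares in replicates 1, 2 and 3 were 17.6%, 15.3% and 10.7%. With a summit in any replicate counted, 15 of the 73 genes (20.5%) had one, against 20.6% of all protein-coding genes, so by count the set lay close to the background. Where peaks were present, they stood higher in the lists than those of all genes with a peak. In replicate 1 the median percentile was 91.8 over the mitochondrial ribosomal protein genes, against 55.5 over all genes. The same medians were 89.1 against 58.7 in replicate 2 and 95.6 against 61.7 in replicate 3. Over the 9 bound genes the median of the mean percentile was 96.0, against 75.4 over all 1266 bound genes. A mean percentile above 90 was reached by 7 of the 9 (77.8%), against 323 of the 1266 (25.5%), a level chosen after the values were seen.

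The bound genes were 6 of the 47 for the large subunit (12.8%) and 3 of the 26 for the small subunit (11.5%). A summit in any replicate was found at 8 large-subunit and 7 small-subunit genes. By chromosome arm, the bound genes were 3 of 12 on 2L, 2 of 12 on 2R, 3 of 17 on 3L, 1 of 21 on 3R and 0 of 11 on X. mRpS10 was the only one of the 21 genes on 3R with a summit in any replicate. Over all arms 20.6% of all protein-coding genes had one, a share not counted for each arm. The bound share of all protein-coding genes was 8.62% on 3R and lay between 8.20% on 2R and 10.5% on X among these arms. The counts per arm are small, and differences between arms were not tested.

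Most mitochondrial ribosomal protein genes start back to back with a neighbour. A divergent neighbour was present at 53 of the 73 genes (72.6%), against 3815 of 13968 protein-coding genes (27.3%). Of those 53 genes, 8 were bound (15.1%), against 13.8% of all protein-coding genes with a divergent neighbour. Of the other 20 genes, mRpL41 alone was bound (5%), against 7.27% of all protein-coding genes without a divergent neighbour. Within each arrangement the share of bound mitochondrial ribosomal protein genes was thus near its background. The smallest distance between the divergent starts of a pair was 24 to 492 bp (median 239.5) at the 8 bound genes. It was 20 to 499 bp (median 279) at the other 45, so the ranges overlapped almost wholly. At mRpL2 and mRpL23 those starts lie 64 and 24 bp apart, whereas the starts nearest the locus lie 436 and 50 bp apart.

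**Figure D2:**
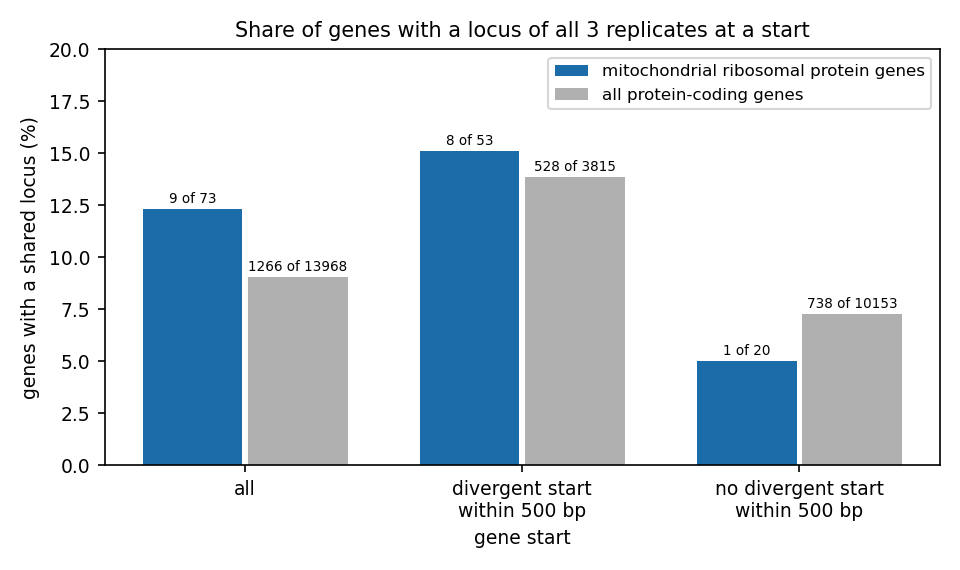
Share of genes with a locus of all 3 replicates within 500 bp of a start (y axis, %) for the mitochondrial ribosomal protein genes (blue) and all protein-coding genes (grey), over all genes and by whether a divergent start lies within 500 bp. With a divergent start the shares are 8 of 53 and 528 of 3815, and without one 1 of 20 and 738 of 10153.

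At 7 of the 9 loci (77.8%) the centre lay between divergent protein-coding starts, each within 500 bp, against 187 of all 1080 shared loci near a protein-coding start (17.3%). Among bound genes with a divergent neighbour only, 7 of 8 mitochondrial ribosomal protein genes (87.5%) had the locus between the starts, against 340 of 528 protein-coding genes (64.4%). In both counts mRpL2 rests on the FoxK start 112 bp from its centre. Another FoxK start lies between that centre and mRpL2. A start of another protein-coding gene was nearer to the centre at 6 of the 9, namely that of CenG1A, Art3, Icmt, betaggt-I, Mon1 and FoxK. For mRpS10 and Art3 (129 and 128 bp) the difference lay within the span of the replicate summits, 6 bp. The same held for mRpS2 and Mon1 (115 and 107 bp), with a span of 35 bp. In replicate 2 the summit lay nearer to the ribosomal protein gene at both loci. At the loci of mRpL41, mRpL23 and mRpL34 the nearest protein-coding start was that of the ribosomal protein gene. When a locus counted only for the nearest protein-coding start, those 3 genes alone were bound (4.11%), against 7.23% of all protein-coding genes. Whether the locus relates to either gene of a divergent pair cannot be told apart by position.

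Measured to the nearest protein-coding start, whichever gene it belonged to, the 9 centres lay 62 to 182 bp away, with a median of 112 bp. The median was 121 bp (quartiles 95.5 and 164) over the 187 loci between divergent starts and 191 bp over the 1080. For mRpS23, mRpL20 and mRpL2, which lie 282 to 389 bp from the locus, the neighbour was at 103, 117 and 112 bp. The summits of the 3 replicates at one locus spanned 6 bp at mRpS10 to 35 bp at mRpS2, with a median of 16 bp, against 26 bp over the 187 loci and 29 bp over the 1080.

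**Figure D3:**
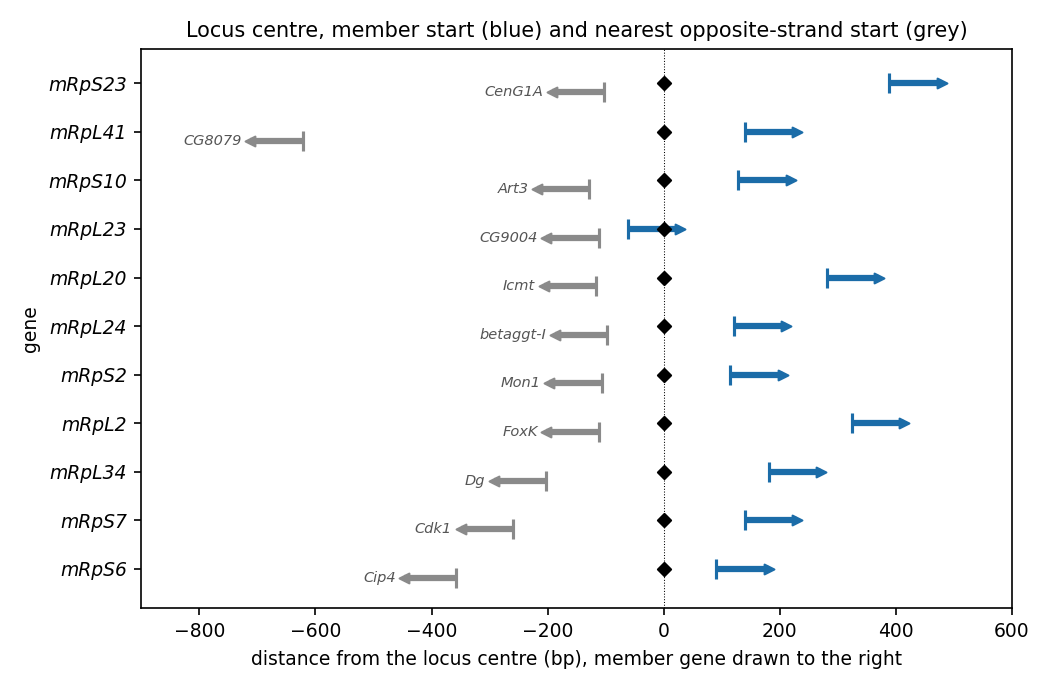
Positions of the start of each mitochondrial ribosomal protein gene (blue) and of the nearest protein-coding start on the opposite strand (grey) relative to the locus centre (black diamond), in bp, with the ribosomal protein gene drawn to the right. Arrows point along transcription. The centre lies between both drawn starts at every gene except mRpL23, where it is 62 bp inside the gene, and CG8079 lies 622 bp from the mRpL41 locus. Another FoxK start, not drawn, lies between the centre and mRpL2.

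Some genes came close to the 500 bp limit. Just inside it were the locus of mRpS23 at 389 bp and the single-replicate peaks of mRpL43 at 385 bp and mRpS29 at 439 bp, all upstream. Just outside it, mRpS26 had a peak in replicate 2 at 504 bp, mRpS25 one in replicate 1 at 526 bp, and mRpS31 one in replicates 1 and 2 at 535 bp. mRpL33 was the 1 gene beyond the limit, at 594 bp, with a shared locus, whose signals were 141, 85.0 and 67.9 in replicates 1, 2 and 3. That locus lies on X, 199 bp inside norpA, the phospholipase C gene of fly phototransduction, at percentiles of 71.6, 42.3 and 22.7. Farther out, mRpL27 had a peak of replicate 1 at 902 bp, which was nearer to the cytosolic ribosomal protein gene RpL27A.

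The ranked lists, which also hold peaks that repeated poorly, were read for the 58 genes without a thresholded summit. A ranked summit within 500 bp was present in at least 1 replicate at 40 of them, in all 3 replicates at 6, and in none at 18. mRpS26 stood highest, at percentiles of 83.2, 83.7 and 78.8 of the ranked lists in replicates 1, 2 and 3. The IDR was 0.0102, 0.473 and 0.0519 in the same order, so mRpS26 came closest to the threshold of 0.01 in replicate 1. mRpS16, mRpL53, mRpL18 and mRpS17 came next, with a highest percentile of 82.7, 82.0, 79.5 and 79.4. In the authors' series-wide conservative list 17 of the 73 genes (23.3%) had a peak within 500 bp, against 3024 protein-coding genes (21.6%). The 9 bound genes were all among them, and mRpS7, mRpS6, mRpS26, mRpS18B, mRpL53, mRpS24, mRpL11 and mRpS31 were added.

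Within 50 bp of the centre, A and T made up 68.3% to 86.1% of the bases at the 9 loci, with a median of 77.2%. In the flanks 200 to 500 bp away the share was 45.0% to 64.8%, with a median of 53.5%, and the centre was above the flanks at 9 of 9. mRpS2 had the largest centre value, 86.1% against 45.0% in its flanks, followed by mRpL20 with 82.2% against 53.3% and mRpL24 with 81.2% against 53.5%. The smallest step was at mRpS23, the locus with the highest percentile, with 71.3% against 64.8%. The centre was also above the flanks at 914 of the 1080 shared loci near a start (84.6%, medians 71.3% and 55.8%) and at 185 of the 187 between divergent starts (98.9%, medians 74.3% and 52.5%). At starts of mitochondrial ribosomal protein genes without a shared locus, windows of the same size placed 112 bp upstream had medians of 71.3% and 51.3%, and 63 of 68 (92.6%) had the centre above the flanks. The A and T step was thus also present at most starts of unbound genes of the set. This measure was chosen after the sequences were seen.

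**Figure D4:**
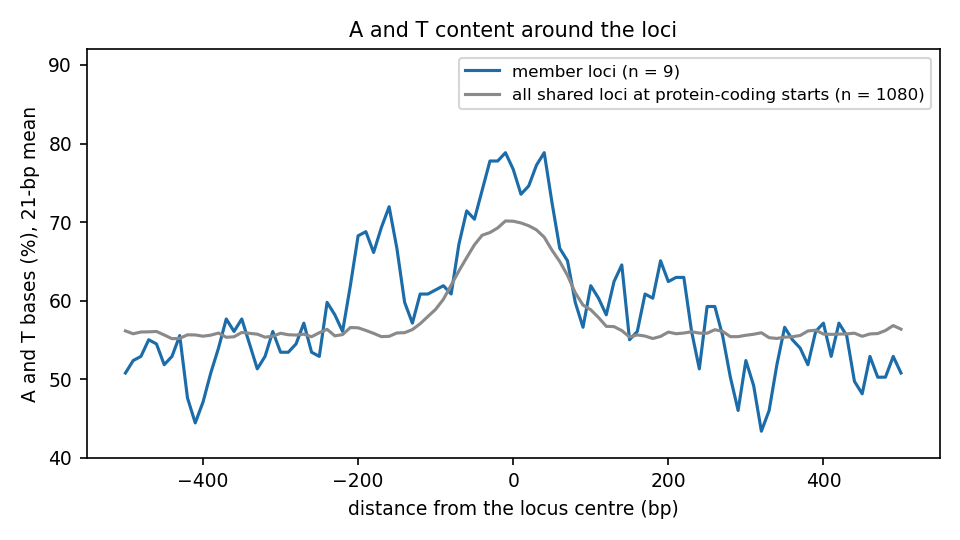
Mean share of A and T bases (y axis, %, smoothed over 21 bp) by distance from the locus centre (x axis, bp) at the 9 loci of mitochondrial ribosomal protein genes (blue) and at all 1080 shared loci within 500 bp of a protein-coding start (grey). Both curves are highest within 50 bp of the centre, and the curve of the 9 loci is the rougher because it averages few sequences.

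Fixed words were read on either strand in the 100 bp to each side of the 9 centres and in windows of the same length, 250 to 50 bp upstream, at all protein-coding starts. TATCGATA, the DNA replication-related element of flies, was at none of the 9, at 1.57% of the 1080 loci and at 3.67% of the upstream windows. Its inner part CGATA was at 2 of the 9, mRpS10 and mRpL34, at 23.7% of the loci and at 31.3% of the upstream windows. GAGAG was at mRpL23 and mRpL2 (27.1% of the loci, 24.9% of the upstream windows), and CACGTG was at mRpL23 (1.48% and 2.21%). TATAAA was at mRpL23, mRpL24, mRpS2 and mRpL2, against 39.9% of the loci and 31.3% of the upstream windows. CAGCTG was at none of the 9, at 6.48% of the loci and at 9.77% of the upstream windows. For CAGCGC, also at none, the shares were 6.20% and 7.33%. GGTCACAC (0.370% and 2.07%), CGCATGCG (0.370% and 0.418%) and the longer GCGCATGCG that contains it (0.0926% and 0.321%) were likewise absent from the 9 windows, which says nothing of any factor. ACAGTG, added after the sequences were seen, occurred at 3 places at mRpS23 and at 1 place at mRpL20, against 16.9% of the loci and 9.27% of the upstream windows with at least 1 copy. At the 187 loci between divergent starts, CGATA was at 32.1%, GAGAG at 16.6%, CACGTG at 0%, TATAAA at 51.3% and ACAGTG at 15.0%. No word searched was common to all 9 loci.

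Other nuclear genes of mitochondrial gene expression were counted in the same way, from lists chosen with earlier results of these data known. None of the 15 mitochondrial aminoacyl-tRNA synthetase genes and none of the 12 mitochondrial translation factor genes was bound. Of 20 genes for the upkeep, transcription and RNA processing of mitochondrial DNA, 4 were bound (20%), against 9.06% of all protein-coding genes. PNPase, which encodes a polynucleotide phosphorylase that degrades mitochondrial RNA, had signals of 1261, 1116 and 854 in replicates 1, 2 and 3, and its mean percentile of 99.9 ± 0.0898 (SD, n = 3) lay beside the 99.7 ± 0.140 of mRpS23. The others were SLIRP2 at 97.5 ± 0.301, SLIRP1 at 76.7 ± 7.64 and scu, which encodes a dehydrogenase that is also a subunit of mitochondrial RNase P, at 54.7 ± 24.2. SLIRP1 and SLIRP2 are named for a mammalian RNA-binding protein that stabilises mitochondrial transcripts. For cytosolic ribosomal proteins 5 of 92 genes were bound (5.43%), with mean percentiles of 21.4 to 70.2, and for oxidative phosphorylation 3 of 87 (3.45%), with 39.2 to 93.3. A divergent neighbour was present at 39.1% of the cytosolic ribosomal protein genes and at 44.8% of the oxidative phosphorylation genes, both below the 72.6% of the mitochondrial ribosomal protein genes.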

How the data were processed

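Per the labels, chromatin of whole prepupae was sonicated and precipitated through the tag in 3 biological replicates. The peak lists are on dm6, per the deposited README texts. The sources used here do not give the aligner, the peak caller or the samples paired for the IDR. The authors deposited for each peak a score scaled from the IDR, a signal on an unstated scale and, in the ranked lists, the −log10 of the IDR. The smallest deposited score in the thresholded lists was 830, an IDR of 0.01. How the conservative list of the whole series was made from the replicates is not stated, so it has no SD.

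From these lists, summits were joined within 150 bp and assigned to every protein-coding gene with a start within 500 bp (Ensembl release 115 gene models, python 3.11.15, numpy 2.4.6, pandas 2.3.3). This gave 9014 loci, 3746 of them with all replicates. The assignment was run on simulated peaks planted at genes with a single annotated start, as a check of the code alone. That check does not bear on which gene of a divergent pair a locus belongs to. There is 1 group, so nothing was tested between conditions, and counts stand beside those over all protein-coding genes. Percentiles remove scale but depend on the length of the list. Genes named are those with a summit, those with one at most 1000 bp away, the 5 highest of the rest in the ranked lists, neighbouring genes and bound genes of the other lists. The genes and lists were chosen with earlier results of these data known. Of the listed symbols, 6 had no match. One of them, tam, is an older symbol of PolG1, already listed, and was dropped after it had matched pyd, a bound gene of another role. Coordinates are 1-based.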

Additional observations from a re-analysis of the deposited data

How the results depend on the processing

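With each replicate left out in turn, 9 to 11 mitochondrial ribosomal protein genes were bound, and 1337 to 1760 of all protein-coding genes. The median percentile was 91.9 to 96.3 and the median offset from the start -141 to -137 bp, against 96.0 and -140 bp with all replicates. The 11 genes, and the 91.9, came without replicate 3, where mRpS6 and mRpS7 joined. The 9 genes were the same when summits were joined within 50 or 300 bp, when peak intervals had to overlap, with ranked lists at the same score, and with the most upstream start only. The share over all protein-coding genes was 7.7%, 9.11%, 9.11%, 9.21% and 7.09% in that order, against 9.06%. A single annotated start was present at 91.8% of the mitochondrial ribosomal protein genes and at 73.5% of all protein-coding genes. A window of 200 bp left 6 genes, without mRpS23, mRpL20 and mRpL2, with a median percentile of 94.7, an offset of -125 bp and 706 of all genes. A window of 1000 bp added mRpL33, with 93.6 and -161 bp. The bound share there was 13.7%, against 1625 of all genes (11.6%). The stronger 50% of each list lost mRpL34, with 97.1, -134.5 bp and 831 of all genes. Counting a locus only for the nearest protein-coding start left 3 genes, a median percentile of 98.2 and a mean of 5.67 genes per replicate, against 11.7. The conservative list gave 17 genes, 78.6, -182 bp and 3024 of all genes. Ranked among promoter peaks alone, the median percentile was 93.0. The median percentile over all bound genes, 75.4 in the main setting, is not given for these settings. Whether the set stood higher than all bound genes there can thus not be read from these medians.

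Read depth is unknown, replicate 3 has the shortest list, and signal below the threshold is not listed. Every list comes from the same tagged line, and antibody background was not tested. Genes are not replicates, and a locus between divergent starts counts for both genes. No paired analysis was possible because the replicates form a single group.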
